A study of Mus musculus with 9 samples.

Results

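Ifit1, Ifit2, Ifit3, Ifit3b, Isg15, Irf7, Usp18, Oasl2 and Rsad2, 9 genes that interferon induces, were examined in bulk RNA sequencing of mouse liver, as 9 of the 56748 genes in the deposited table. They were chosen by name, after lower Ifit1 and Ifit3 counts in the DSS group and a partly higher Ifit3 count in the Indirubin group had been seen in these same libraries. Their levels in the 3 groups are therefore given as a description, with standard errors and no p-value. The question was how a set of liver interferon-response genes was placed in colitis and in colitis with indirubin, the red indigo isomer found in the herbal preparation indigo naturalis.

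There were 3 groups of 3 C57BL/6 mice by the labels (C57BL/6J in the methods of the study), bought at 7 to 8 weeks of age. The DSS mice drank 1.8% dextran sulfate sodium, a polymer that injures the colon lining, for 3 cycles of 1 week followed by 1 week of recovery, and were given 200 µL of sterile water by mouth daily. The Indirubin mice had the same DSS cycles and 1 g of indirubin per kg per day in that volume. The Control mice are labelled as given water and no DSS, although the series title speaks of colitis mice as a whole, so whether they carried any colitis is known only from that label. Every library came from whole liver, and fewer cells of a type and less RNA per cell cannot be told apart in such samples. With 3 mice in a group, the spread given below is that of 3 libraries.

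Type I interferons bind the receptor made of Ifnar1 and Ifnar2, and the kinases Jak1 and Tyk2 then activate a factor that contains Stat2 and Irf9 and binds the interferon-stimulated response element near their target genes. The products of these targets block viral RNA and proteins, and some of them feed back on the pathway, as Irf7 does by driving interferon-alpha transcription and Usp18 by restraining the receptor. In liver, hepatocytes, Kupffer cells, endothelial cells and incoming leukocytes can all express such genes.

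The response element has a core in which GAAA is repeated, and the sequences before the start sites are shown because that element is what joins these genes to the pathway. The letters GAAANNGAAA were searched on both strands (TTTCNNTTTC on the other) in the 250 bases before each RefSeq start site. The RefSeq promoter table, on build GRCm38.p6, held 8 of the 9 genes in 9 windows, of which 5 windows (55.6%) and 5 genes had a match. Across all its promoters, 978 of 32851 windows (2.98%) had one. Matches are in capitals below, and each stretch runs 5′ to 3′ on the strand of its gene and ends at the base before the start site. The Ifit1 stretch is chr19:34640765-34640888 on the plus strand, Ifit3 is chr19:34583353-34583528 on the plus strand, Ifit3b is chr19:34607749-34607956 on the plus strand, Isg15 is chr4:156200819-156200916 on the minus strand and Rsad2 is chr12:26456453-26456592 on the minus strand.
Ifit1: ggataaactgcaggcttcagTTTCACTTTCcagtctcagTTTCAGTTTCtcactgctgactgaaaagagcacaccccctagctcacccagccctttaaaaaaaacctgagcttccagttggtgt
Ifit3: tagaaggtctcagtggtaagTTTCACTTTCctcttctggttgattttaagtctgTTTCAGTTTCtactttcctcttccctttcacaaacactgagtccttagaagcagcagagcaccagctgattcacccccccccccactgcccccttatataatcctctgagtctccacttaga
Ifit3b: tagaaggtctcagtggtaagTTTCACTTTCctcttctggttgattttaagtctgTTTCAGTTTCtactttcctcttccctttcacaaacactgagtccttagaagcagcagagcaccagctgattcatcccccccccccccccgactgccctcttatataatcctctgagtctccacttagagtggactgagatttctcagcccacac
Isg15: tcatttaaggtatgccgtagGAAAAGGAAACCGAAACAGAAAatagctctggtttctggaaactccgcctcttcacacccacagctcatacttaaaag
Rsad2: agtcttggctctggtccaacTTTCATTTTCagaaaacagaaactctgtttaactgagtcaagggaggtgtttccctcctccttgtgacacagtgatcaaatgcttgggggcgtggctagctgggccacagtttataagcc

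Ifit1, Ifit3 and Ifit3b each had 2 matches, written TTTC because they lie on the strand opposite the gene. Isg15 had 3 on its own strand that overlap one another and cover 22 bases. Rsad2 had 1. Windows with 2 or more matches were 4 of the 9 and 59 of the 32851 over all promoters (0.180%). No match lay in the windows of Ifit2, Irf7 or Oasl2, which says only that these letters are not there. Among the wider interferon lists described below, 54 of 176 windows (30.7%) had a match. A match of letters is not evidence that a factor bound there.

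**Figure D1:**
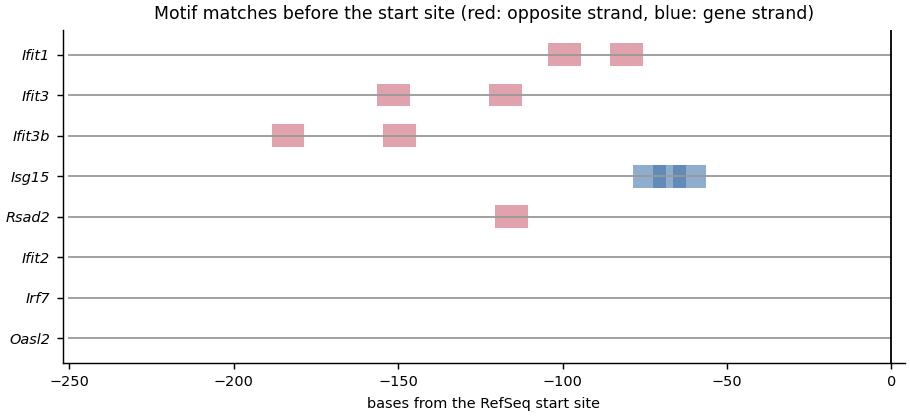
Positions of the matches to GAAANNGAAA before the RefSeq start site (x axis, bases, with the start site at the right end) for the 8 genes held in the promoter table. Red boxes lie on the opposite strand and blue boxes on the strand of the gene; Ifit1, Ifit3 and Ifit3b have 2 each, Isg15 has 3 that overlap and Rsad2 has 1.

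The libraries held 6514863 to 7944684 counts, of which mitochondrial transcripts took 71.6% to 91.3%, leaving nuclear totals of 569044 to 2132208. The least rich library, the second DSS mouse, had counts for 8302 genes and the richest, the second Indirubin mouse, for 17389. The 10 hepatocyte markers were all present in every group, with summed levels of 13968 to 21733 CPM (each count set against its normalized library total) in Control, 12662 to 26845 in DSS and 12996 to 16944 in Indirubin. The scaling used the trimmed mean of M-values (TMM) over the 9 libraries, and levels are given as the mean ± SD of 3 libraries.

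All 9 genes had their lowest group mean in DSS, where every DSS library lay below every Control library for each of them. They sat at 4.57% (Ifit1) to 25.2% (Irf7) of the Control mean, and the Ifit1 share rests on the second Control mouse, at 198% of that mean. With indirubin 5 of the 9 (Ifit3, Ifit3b, Isg15, Irf7 and Usp18) lay above DSS in all libraries, and the group means of these 5 reached 33.6% to 61.4% of Control, with Ifit1 at 5.93% and Ifit2 at 24.6%. Oasl2 (47.4%) and Rsad2 (54.1%) owed their means to the second Indirubin mouse, since the single mice were at 17.2%, 98.6% and 26.5% of the Control mean for Oasl2 and at 38.1%, 108.8% and 15.5% for Rsad2. Ifit1, Ifit2, Oasl2 and Rsad2 overlapped between the Indirubin and DSS groups. All 9 passed the default filter on low counts in all 3 comparisons.

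The 4 Ifit genes encode tetratricopeptide-repeat proteins that recognise or hold back viral RNA, and lie with 3 other annotated genes within 99316 bases of chromosome 19 (34528094 to 34627409 on build GRCm39). Ifit1 (ENSMUSG00000034459, chr19:34618271-34627409, plus strand), which binds RNA caps lacking 2'-O methylation, was at 19.8, 151 and 58.2 CPM in the Control mice, at 6.52, 1.77 and 2.19 in the DSS mice and at 2.94, 7.37 and 3.28 in the Indirubin mice. The lowest Control library lay above all 6 others, while DSS and Indirubin interleaved. The means were 76.4 ± 67.5, 3.50 ± 2.63 and 4.53 ± 2.47 CPM, and the large Control SD came from the second mouse, with 858 counts against 102 and 239. On the log2 scale Ifit1 was lower by -4.36 (standard error 0.70) in DSS than in Control, with -3.46 without the second Control mouse and -5.21 without the first DSS mouse, and the difference between Indirubin and DSS was 0.38 (standard error 0.73). That second difference was -0.17 without the second Indirubin mouse, -0.0010 without the second DSS mouse and 1.07 without the first, so it had no settled direction.

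Ifit2 (ENSMUSG00000045932, chr19:34528094-34553819, plus strand), which restrains virus replication and promotes apoptosis, was at 15.95, 11.98 and 14.6 CPM in Control, 6.05, 0.532 and 1.65 in DSS and 3.49, 4.83 and 2.16 in Indirubin. The Control mice were close together, at 14.2 ± 2.02 CPM, and above all others. DSS, at 2.74 ± 2.92 CPM, and Indirubin, at 3.49 ± 1.34, overlapped. The log2 difference of Ifit2 between DSS and Control was -2.30 (standard error 0.68) and became -3.60 without the first DSS mouse. Between Indirubin and DSS it was 0.34 (standard error 0.90), ranging from -0.20 without the second DSS mouse to 1.54 without the first.

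Ifit3 (ENSMUSG00000074896, chr19:34560931-34566131, plus strand) was at 21.8, 48.4 and 36.0 CPM in Control. The DSS mice were nearly alike, at 3.67, 3.72 and 3.11 CPM, and the Indirubin mice had 7.34, 17.5 and 12.6. The 3 groups therefore stood apart without overlap, with Indirubin between the other two. The means were 35.4 ± 13.3, 3.50 ± 0.341 and 12.5 ± 5.10 CPM. Ifit3 differed by -3.29 (standard error 0.41) on the log2 scale between DSS and Control and by 1.84 (standard error 0.50) between Indirubin and DSS. Over all alternatives the second difference stayed between 1.51 and 2.29.

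Ifit3b (ENSMUSG00000062488, chr19:34585370-34590801, plus strand), the near copy of Ifit3, had 54, 42 and 63 counts in Control, 0, 0 and 17 in DSS and 29, 28 and 41 in Indirubin. As CPM it was at 11.1 ± 4.004, 0.518 ± 0.897 and 3.72 ± 1.52, again with no overlap between any pair of groups. Its log2 differences were -4.22 (standard error 1.00) for DSS against Control and 2.72 (standard error 1.39) for Indirubin against DSS. All DSS counts came from the third mouse, without which these became -8.99 and 8.01, and blocking on replicate number gave 4.30 for the latter, which was 2.06 without the first DSS mouse and 2.11 without the second DSS mouse. In GENCODE M21 transcripts 521 of the 1646 windows of 100 bases in Ifit3 (31.7%) also occur in Ifit3b, and the aligned transcripts are 98.0% identical over 1697 bases. How reads matching both were counted is not given in the sources used here, so the split between Ifit3 and Ifit3b is uncertain. Ifit1 shares 84 windows (3.29%) with Ifit1bl2, and the other members share none. Ifit1bl1 and Ifit1bl2, the remaining coding genes of the cluster, had no more than 14 counts in any library.

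Irf7 (ENSMUSG00000025498, chr7:140842619-140846394, minus strand), the factor that drives interferon-alpha genes, had the highest counts of the 9. It was at 55.8, 160 and 169 CPM in Control, 38.0, 31.7 and 27.3 in DSS and 54.2, 120 and 61.8 in Indirubin. The Indirubin mice lay above every DSS mouse and overlapped Control through its first mouse. The means were 128 ± 63.0, 32.4 ± 5.39 and 78.8 ± 36.3 CPM. Irf7 differed by -1.95 (standard error 0.41) between DSS and Control on the log2 scale and by 1.28 (standard error 0.42) between Indirubin and DSS, which was 0.84 without the second Indirubin mouse.

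Isg15 (ENSMUSG00000035692, chr4:156283912-156285253, minus strand) encodes a ubiquitin-like protein that is joined to other proteins during infection. It was at 8.17, 31.9 and 27.0 CPM in Control, 2.25, 2.13 and 3.84 in DSS and 4.59, 10.98 and 16.4 in Indirubin, with means of 22.4 ± 12.5, 2.74 ± 0.955 and 10.7 ± 5.92. DSS lay below both other groups, and Indirubin overlapped Control, whose first mouse was the low one. The log2 difference of Isg15 was -2.97 (standard error 0.54) for DSS against Control and 1.95 (standard error 0.59) for Indirubin against DSS.

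Usp18 (ENSMUSG00000030107, chr6:121222865-121247876, plus strand) encodes the protease that removes Isg15 from proteins and damps Ifnar2 signalling. It had 22, 57 and 41 counts in Control, 7, 0 and 8 in DSS and 20, 68 and 44 in Indirubin. On the CPM scale this was 8.10 ± 3.31, 0.520 ± 0.453 and 4.35 ± 1.06, with DSS apart from both and Indirubin overlapping Control. The log2 differences of Usp18 were -3.80 (standard error 0.89) for DSS against Control and 2.97 (standard error 1.07) for Indirubin against DSS.

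Oasl2 and Rsad2 were also read from few counts. Oasl2 (ENSMUSG00000029561, chr5:115034997-115050295, plus strand), a relative of the oligoadenylate synthetases, had 26, 52 and 86 counts in Control, 27, 0 and 1 in DSS and 11, 141 and 36 in Indirubin. At 11.7 ± 8.25, 1.10 ± 1.82 and 5.56 ± 5.22 CPM, Oasl2 in DSS lay below Control in every library and overlapped Indirubin through the first DSS mouse. Its log2 differences were -3.32 (standard error 1.06) and 2.32 (standard error 1.26), and without that mouse -7.24 and 6.21. The first difference was -2.65 without the third Control mouse and -2.73 without the third DSS mouse. The second difference was 1.21 without the second Indirubin mouse. Rsad2 (ENSMUSG00000020641, chr12:26492745-26506451, minus strand) encodes viperin, which makes a chain-ending ribonucleotide. Rsad2 had 35, 61 and 17 counts in Control, 19, 0 and 6 in DSS and 15, 96 and 13 in Indirubin. That gave 7.23 ± 3.32, 0.934 ± 1.17 and 3.91 ± 3.52 CPM, arranged as for Oasl2. Its log2 differences were -2.83 (standard error 0.98) and 2.03 (standard error 1.22), or -4.42 and 3.52 without the first DSS mouse, and the second was 1.02 without the second Indirubin mouse.

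**Figure D2:**
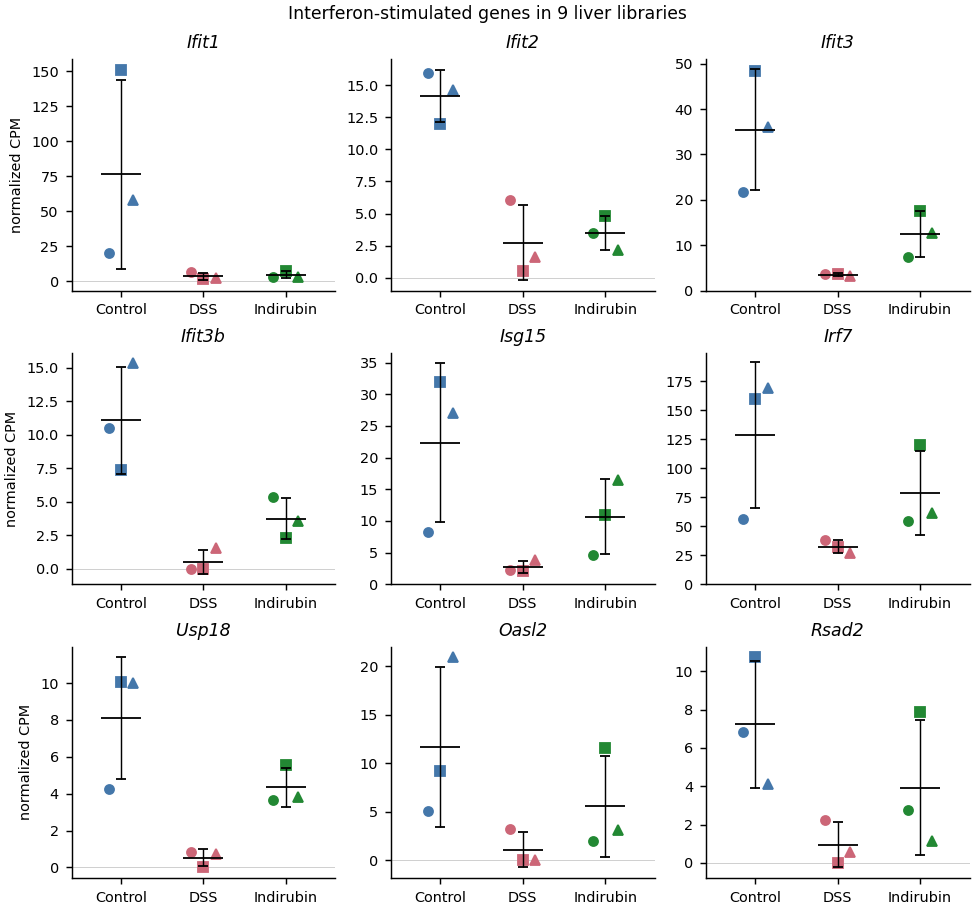
Normalized CPM (y axis, linear, a separate scale for each gene) of the 9 genes in 3 Control, 3 DSS and 3 Indirubin libraries, where circles, squares and triangles are mice 1, 2 and 3 of a group, the wide line is the mean and the bar its SD. For every gene the 3 DSS points lie under the 3 Control points, and Ifit3 and Ifit3b are the genes with 3 groups apart.

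Set side by side, the members' median log2 difference was -3.29 for DSS against Control, where that over the 7482 genes tested was 0.01. Of all genes tested in that comparison 8.54% were lower and 7.1% higher in DSS without overlap, against 9 of 9 members lower. The members' median was 1.95 for Indirubin against DSS, where that over 9117 genes was 0.15. In that comparison 10.5% of all genes were higher and 5.92% lower without overlap, against 5 of 9 members higher. Since the rule used both contrasts, nothing is read from these counts. They were the same (9 and 5) when CPM was computed on nuclear counts alone.

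For Indirubin against Control the 9 values were also negative, from -4.01 (standard error 0.69, or -3.09 without the second Control mouse) for Ifit1 and -1.99 (standard error 0.45) for Ifit2 to -0.67 (standard error 0.49) for Irf7, with a median of -1.02. That of Irf7 was -1.13 without the second Indirubin mouse, -1.06 without the first Control mouse and -0.45 without the third Control mouse. Ifit1, Ifit2, Ifit3 (-1.46, standard error 0.44) and Ifit3b (-1.57, standard error 0.50), the 4 neighbours on chromosome 19, were lower without overlap. In this comparison 9.32% of 8059 genes were lower and 12.2% higher without overlap. Isg15, Irf7, Usp18, Oasl2 and Rsad2 overlapped Control. Scaled by library size alone these 5 turned to 0.09, 0.46, 0.20, 0.24 and 0.27 and the members' median to 0.09, while the median of all genes moved from 0.13 to 1.11, so on that scale too the 9 genes lay below the median gene. The 3 comparisons share libraries pairwise, and their values are not independent of one another. Without the second Indirubin mouse the members' median was -1.79 for Indirubin against Control and 1.21 for Indirubin against DSS.

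**Figure D3:**
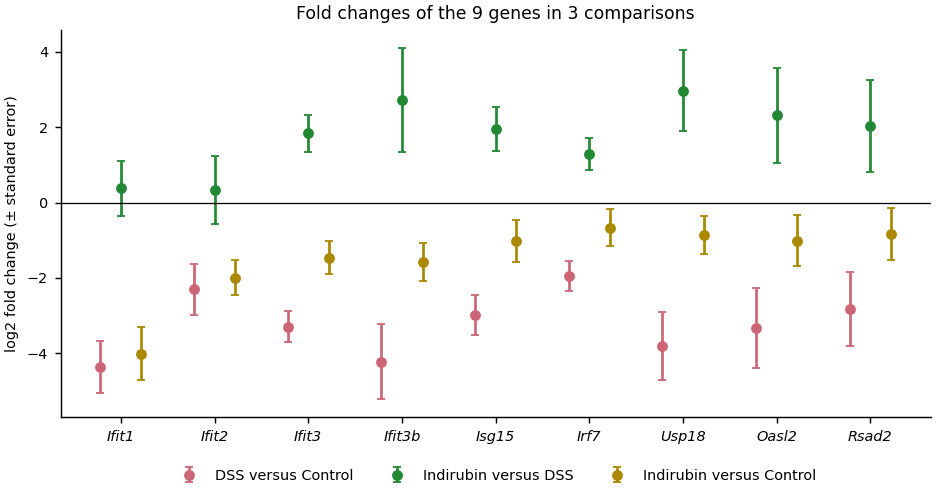
Log2 differences (y axis) of the 9 genes in 3 comparisons, with bars of 1 standard error from edgeR's quasi-likelihood fit. The values of Ifit1 and Ifit2 for Indirubin against DSS (green) lie at 0.38 and 0.34, near 0, and those of the other 7 between 1.28 and 2.97.

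Ratios between members within a library do not depend on how libraries are scaled. The count of Ifit3 was 1.10, 0.321 and 0.619 times that of Ifit1 in the Control mice, 0.564, 2.10 and 1.42 times in the DSS mice and 2.50, 2.38 and 3.84 times in the Indirubin mice. Every Indirubin ratio was above the 6 others. The Usp18 count was 0.216, 0.0664 and 0.172 times that of Ifit1 in Control, 0.127, 0 and 0.333 in DSS and 1.25, 0.756 and 1.16 in Indirubin, again higher in each Indirubin mouse than elsewhere. The ratio of Ifit2 to Ifit1 overlapped, at 0.804, 0.0793 and 0.251 in Control, 0.927, 0.3 and 0.750 in DSS and 1.19, 0.656 and 0.658 in Indirubin. Irf7 was at 1.06 to 2.91 times the Ifit1 count in Control, 5.84 to 17.9 in DSS and 16.3 to 18.8 in Indirubin, so that Control stood apart from both. The Isg15 count was at 0.412, 0.211 and 0.464 times that of Ifit1 in Control, 0.345, 1.2 and 1.75 in DSS and 1.56, 1.49 and 5 in Indirubin, where the last 2 groups overlapped. Since Ifit1 and Ifit3 were chosen from these contrasts, the ratios are a description and nothing is read from them.

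**Figure D4:**
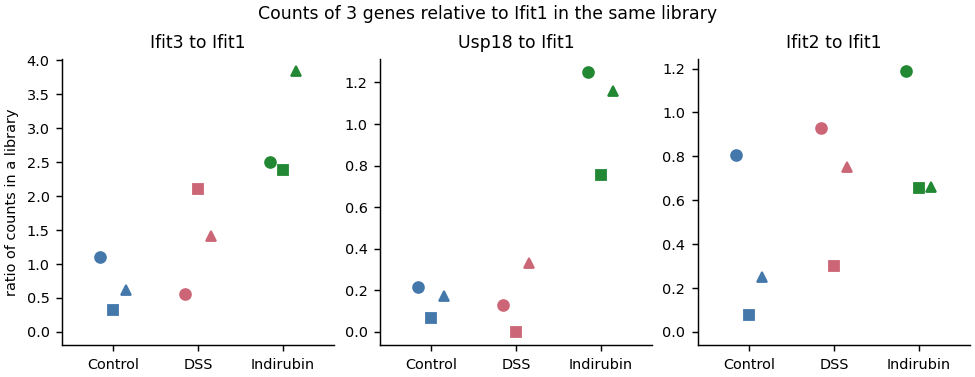
Counts of Ifit3, Usp18 and Ifit2 divided by the Ifit1 count of the same library (y axis, linear, no unit) in 3 Control, 3 DSS and 3 Indirubin mice (circle, square and triangle for mice 1, 2 and 3). The Indirubin ratios of Ifit3 (2.38 to 3.84) and Usp18 (0.756 to 1.25) lie above all others, and those of Ifit2 overlap the other groups.

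Per kilobase of gene length, Irf7 and Isg15 had the highest levels in each group. In Control the order in CPM per kilobase was Irf7 (34.0), Isg15 (31.8), Ifit1 (28.8) and Ifit3 (20.3), which overlapped one another. Ifit3 lay above Ifit3b (5.54) in every library, and the lower ranks, down to Rsad2 (1.67), overlapped their neighbours. In DSS Irf7 (8.57) lay above Isg15 (3.90) and Isg15 above Ifit3 (2.01) without overlap, with Ifit1 (1.32) after it. In Indirubin Irf7 (20.9) and Isg15 (15.2) overlapped, Ifit3 (7.16) lay above Ifit3b (1.86), with Ifit1 (1.71) after that.

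Single mice moved most members together. The second DSS mouse had the lowest level of its group for 7 of the 9 genes and no count for 4 of them. It was also the library with the fewest genes detected. The second Indirubin mouse was highest in its group for 7 genes and the first lowest for 6. In Control the second mouse was highest for 5 and the first lowest for 6. The part of sample richness in these differences was not tested.

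The wider pathway was read from 7 lists of 198 other genes (ligands, receptors and signal transduction, sensors, antiviral effectors, Isg15 conjugation, other type I targets and interferon-gamma targets), which share these libraries with the members and are not independent of them. In DSS against Control 100 of the 123 tested were lower and 23 higher, with a median of -0.71 on the log2 scale. At an unadjusted p under 0.05, 34 of the 123 were lower and 0 higher, where over all genes 4.05% were lower and 3.48% higher. Scaled by library size alone, 8 were lower and 6 higher, beside 71 lower and 845 higher of all 7482 genes. The list median was then -0.047, beside 0.70 for all genes. After Benjamini-Hochberg adjustment of edgeR's quasi-likelihood p-values with TMM 1 of the 123 fell, against 0.708% of all genes called in either direction. The DESeq2 Wald test called 8 of the lists, beside 55 higher and 88 lower of all 7482 genes. In Indirubin against DSS 89 of 129 were higher, with a median of 0.49. Unadjusted, 8 were higher and 1 was lower past that limit, beside 4.45% and 3.22% of all genes. None passed the adjustment, as for all genes (0%), and the DESeq2 Wald test called 0 of the lists as well, beside 53 higher and 27 lower of all genes. In Indirubin against Control 96 of 132 were lower, with a median of -0.44. Unadjusted, 24 were lower and 3 higher, beside 6.38% and 7.45% of all genes. With library size alone, 1 was lower and 16 were higher, beside 107 lower and 2115 higher of all 8059 genes. The list median turned to 0.51 there and stayed below that of all genes, 1.11. No list gene passed the adjustment with edgeR and TMM, where 0.236% of all genes did. The DESeq2 Wald test called 10 list genes, 9 lower and 1 (Apobec3) higher, beside 146 higher and 170 lower of all 8059 genes.

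The interferons themselves were almost without counts. Of 21 ligand genes none passed the filter, and counts were seen for 5, namely Ifna7 (2 in the first Control mouse), Ifna13 and Ifna14 (10 and 6 in the second Indirubin mouse), Ifna1 (1 in the third Indirubin mouse) and Ifng (5 and 4 in the second and the third). Ifnb1 had none in any library. At these nuclear totals a low level of any of them was not detectable.

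Among receptors and signal transduction, 17 genes were tested for DSS against Control, of which 10 were higher and 7 lower (median 0.22). Stat2, the subunit that carries the activation domain of the response factor, was the gene that fell. It had 112, 374 and 102 counts in Control, 40, 44 and 73 in DSS and 44, 34 and 21 in Indirubin. The levels of Stat2 were 37.5 ± 24.6, 6.40 ± 1.55 and 4.23 ± 3.37 CPM. DSS and Indirubin lay below Control and overlapped each other. In DSS its log2 level fell by 2.50 (standard error 0.45, edgeR adjusted p = 0.0234), and 8 of 15 settings, the one reported included, gave an adjusted p under 0.05, from 9.84e-06 to 0.280. It lost the call without any 1 of the DSS mice, without Control mouse 2 or 3, with library size alone and with all 9 libraries in one fit. Its log2 difference ran from -2.82 to -1.86 over the settings, with -1.86 without the second Control mouse and -1.87 with library size alone. Its difference between Indirubin and DSS was -0.62 (standard error 0.65, adjusted p = 0.943), with overlap, and it ran from -1.58 without the first Indirubin mouse to -0.25 without the third Indirubin mouse. For Indirubin against Control it was -3.17 (standard error 0.62, edgeR adjusted p = 0.0599). That adjusted p ranged from 2.33e-07 to 0.328 over the 15 settings, of which 7 gave one under 0.05. The difference was -4.12 without the first Indirubin mouse and -2.51 without the second Control mouse.

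Irf9, the DNA-binding subunit found with Stat2, overlapped in all comparisons, at -0.23 (standard error 0.56) for DSS against Control. The receptor chains Ifnar1, at 0.22 (standard error 1.28), and Ifnar2, at 0.06 (standard error 0.58), overlapped as well. The kinase Jak2, at -1.95 (standard error 0.84, adjusted p = 0.613), was lower without overlap and Irf1, a factor downstream of interferon-gamma, was higher at 1.08 (standard error 0.63, adjusted p = 0.828), both short of the threshold. With indirubin Irf1 was at -1.33 (standard error 0.70, adjusted p = 0.742) against DSS.

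Of the 23 antiviral effectors tested, 21 were lower in DSS than in Control (median -1.58), 11 without overlap (8.54% of all genes) and none past the adjusted threshold (smallest adjusted p 0.126, edgeR), with 10 lower and 0 higher at an unadjusted p under 0.05. Trim12c, of the antiviral tripartite motif family, was at 12.5 ± 3.56 CPM in Control, 2.23 ± 1.77 in DSS and 2.86 ± 0.812 in Indirubin. Cmpk2, a mitochondrial nucleotide kinase encoded next to Rsad2, had 48, 101 and 19 counts, then 14, 0 and 16, then 15, 38 and 28. Oas1a, an oligoadenylate synthetase that activates RNase L, was at 7.42 ± 3.84, 1.11 ± 0.349 and 2.39 ± 1.62 CPM. The log2 differences of these between DSS and Control were -2.41 (standard error 0.61), -3.21 (standard error 0.85) and -2.69 (standard error 0.74). Against DSS 19 of the 23 tested were higher with indirubin, 9 without overlap, at a median of 0.67, where 56.8% of all genes were higher and 10.5% higher without overlap. Ifitm1, which holds back virus entry at the membrane, had 14, 18 and 12 counts in Control, 14, 15 and 41 in DSS and 23, 209 and 108 in Indirubin, a log2 difference of 1.92 (standard error 0.62, adjusted p = 0.472) between the last 2. Unlike the members, Ifitm1 had Control and DSS close together, at 2.94 ± 0.224 and 2.69 ± 1.05 CPM. Apobec3, a cytidine deaminase that acts on retroviruses, also stood above Control with indirubin, at 2.67 (standard error 0.81, adjusted p = 0.170). Bst2, which tethers budding virus, went the other way, at 53.1 ± 17.9 CPM in Control, 25.4 ± 5.86 in DSS and 13.9 ± 7.68 in Indirubin. For Indirubin against Control Bst2 was at -1.92 (standard error 0.48, adjusted p = 0.110).

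Sensors and adaptors were lower in DSS than in Control for 11 of 13 tested (median -0.37), 5 without overlap, where 49.4% of all genes were lower and 8.54% lower without overlap. Dhx58 and Ifih1, the cytoplasmic RNA helicases LGP2 and MDA5, were at -2.66 (standard error 0.87, adjusted p = 0.348) and -2.19 (standard error 0.82, adjusted p = 0.465). Zbp1, which senses Z-form nucleic acid and triggers necroptosis, had 38, 60 and 58 counts in Control, 53, 6 and 30 in DSS and 66, 122 and 85 in Indirubin. Between Indirubin and DSS Zbp1 differed by 1.52 (standard error 0.63, adjusted p = 0.603) without overlap, and the Indirubin mean of 9.82 ± 2.39 CPM stood beside 10.7 ± 3.37 in Control. Ifi204, a nuclear DNA sensor, had a like difference of 1.34 (standard error 0.59, adjusted p = 0.628), with overlap. Of the enzymes that attach Isg15, Uba7, which activates it, and Ube2l6, which carries it, were at -1.58 (standard error 0.85) and -0.95 (standard error 0.47) for DSS against Control, and all 3 tested in that list were lower with overlap.

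Other type I targets had the same lean, with 34 of 37 lower in DSS (median -1.15), 15 without overlap (8.54% of all genes). Ifi203 was at 23.4 ± 7.25 CPM in Control, 5.56 ± 2.93 in DSS and 7.08 ± 4.33 in Indirubin, a log2 difference of -2.04 (standard error 0.50, adjusted p = 0.103) for DSS against Control. Ifi44 was at -3.09 (standard error 0.88, adjusted p = 0.211) there. With indirubin 33 of 41 were higher than in DSS (median 0.70), 8 or 19.5% without overlap, beside 56.8% and 10.5% of all genes. Lgals3bp, a secreted glycoprotein, was at 26.5 ± 14.6 CPM in Control, 11.6 ± 4.88 in DSS and 26.4 ± 7.61 in Indirubin. Rtp4, a receptor chaperone that interferon induces, was at 9.88 ± 5.64, 3.79 ± 0.196 and 9.18 ± 3.65 CPM. Their log2 differences between Indirubin and DSS were 1.19 (standard error 0.45, adjusted p = 0.530) and 1.28 (standard error 0.51, adjusted p = 0.583). Genes named for interferon-gamma were lower in DSS than in Control for 24 of 30 (median -0.62), and lay both ways with indirubin against DSS, at 14 higher and 15 lower (median -0.13). For Indirubin against Control 27 of 30 were lower (median -0.70), 11 without overlap, beside 44.5% and 9.32% of all genes. Gbp7, a guanylate-binding protein, was at -2.997 (standard error 0.97, adjusted p = 0.341) for DSS against Control. H2-Aa, a class II antigen-presentation chain, was at 11.03 ± 3.78 CPM in Control and 12.01 ± 1.57 in DSS. H2-Aa was lower with indirubin, at 5.89 ± 0.989 CPM, a difference of -1.03 (standard error 0.43, adjusted p = 0.609) from DSS without overlap.

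**Figure D5:**
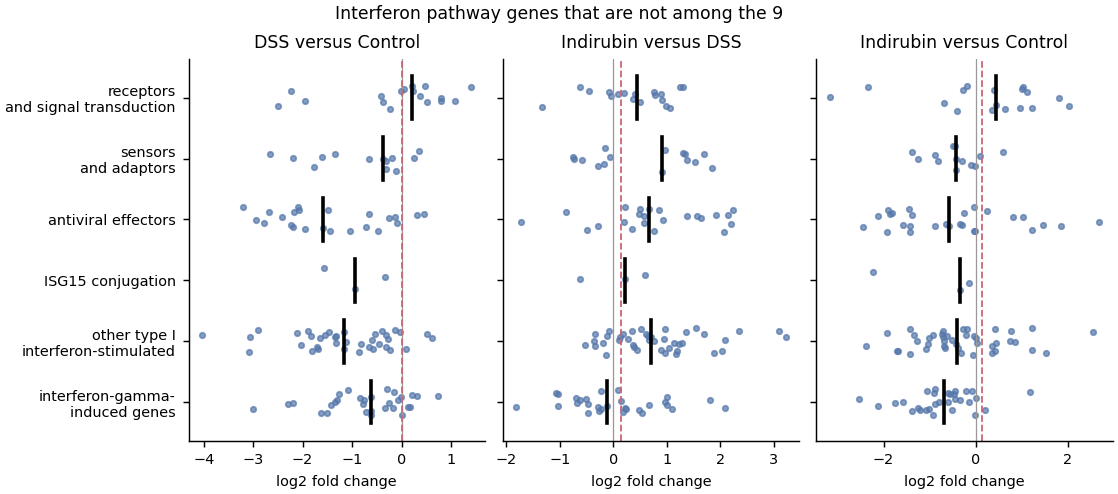
Log2 differences (x axis) of the genes in 6 interferon lists, members left out, in 3 comparisons. Each point is a gene, the black line is the median of its list and the dashed red line the median of all genes tested, and the vertical spread within a row has no meaning. In DSS against Control the effectors (-1.58) and other type I targets (-1.15) lie farthest below, and the receptors (0.22) do not lie below.

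By the correlation of log2 CPM with the members' mean z-score over 9 libraries, the genes most like the set, among 9704 that were not members, were mt-Tg (Pearson r = 0.951), P2ry12 (0.943), Opa1 (0.931), Rrbp1 (0.928), Usb1 (0.923), Zfp715 (0.916), mt-Tl2 (0.914), Tgfb3 (0.913), Fbln5 (0.910) and Dnajb14 (0.905). Of these 10, Usb1 is the one in an interferon list, as are 145 of the 9704. All 10 had their lowest count in the second DSS mouse, Usb1 jointly with the third. The members' own correlations with that score ran from 0.828 (Ifit3b) to 0.961 (Usp18), a score they are part of, and those between pairs of members from 0.61 (Ifit1 with Ifit3b) to 0.93 (Ifit3 with Isg15). These values share library depth and group and have no p.

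Summed markers of other cells differed between groups for some cell types and overlapped for others. Neutrophil markers summed to 1.17 to 3.65 CPM in Control (4 of 13 with counts), 11.5 to 19.8 in DSS (6 of 13) and 31.8 to 255 in Indirubin (12 of 13), with the highest value in the second Indirubin mouse, in which 7 members were the highest of the group. Ly6g, Mmp8, Mmp9 and Mpo were at 0 in Control and DSS. Monocyte markers were at 13.7 to 27.5 (8 of 11), 15.4 to 17.4 (8 of 11) and 20.7 to 66.3 CPM (11 of 11). Markers of plasmacytoid dendritic cells, the main source of interferon-alpha, were at 5.06 to 8.52 (5 of 9), 3.1995 to 5.81 (4 of 9) and 14.3 to 33.9 CPM (7 of 9). Of these markers Cd209d was at 0 throughout and Spib was at 0 in Indirubin alone. Klk1 and Runx2 were at 0 in Control and DSS, Ccr9 in Control alone, and Cox6a2 and Ly6d in DSS alone. Kupffer cell markers were at 108 to 185, 145 to 169 and 168 to 276 CPM, with all 11 present in each group. T and NK cell markers were at 2.64 to 4.38 (9 of 14), 0 to 5.93 (7 of 14) and 6.98 to 7.78 CPM (12 of 14). B cell markers were at 5.11 to 15.9 (9 of 9), 16.5 to 42.9 (9 of 9) and 3.85 to 17.4 CPM (8 of 9). Sinusoidal endothelial markers, at 49.4 to 98.3, 31.9 to 59.7 and 65.8 to 89.6 CPM, and stellate cell markers, at 223 to 345, 115 to 154 and 158 to 307 CPM, had their lowest values in DSS, as the members did. Cholangiocyte markers were at 3.70 to 5.60 (4 of 7), 8.59 to 13.3 (5 of 7) and 4.77 to 8.28 CPM (5 of 7). Markers of pancreatic acinar cells reached 1031 and 1224 CPM in the second and the third Indirubin mice, against at most 23.4 in Control, 3.08 in DSS and 8.26 in the first. The part of these cells in the levels of the 9 genes was not tested.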

How the data were processed

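Bulk RNA sequencing of whole liver was read from 9 libraries, 1 per mouse. Per the labels, 400 ng of RNA isolated with a column kit (RNeasy Plus Micro) went into each library, and reads came from a DNBSEQ instrument. The authors deposited whole-number read counts per gene without normalization. The submitters' processing notes name the build GRCm39. The aligner, the counting program, its strand setting and its treatment of multi-mapping reads are not given in the sources used here. FPKM values and columns of the authors' own comparisons (fold changes, p-values) were left out, as were 3 lists of gene annotation. Members and gene lists were chosen with earlier results of these data known.

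Each comparison used the 6 libraries of its groups in edgeR 4.0.16 (R 4.3.3, limma 3.58.1, data.table version 1.17.8) with TMM, filterByExpr (minimum count 10, minimum total 15), glmQLFit and glmQLFTest, and Benjamini-Hochberg adjustment over all genes tested, called at 0.05. The standard error was the size of the log2 fold change divided by the square root of F. Log2 CPM used a prior count of 2. Named genes were the members, the other Ifit genes, list genes called or among the 3 with the smallest unadjusted p in each comparison (a part of these is printed, with further pathway components such as Irf9 and the receptor chains named after their values were seen), and the 10 most like the members. The fits were tested on data simulated with the same spread for every gene and, planted changes aside, the same composition in every library. The libraries here differed in composition, which that test does not cover. Rigi was the one list symbol without a match, and 1 symbol was matched as a synonym. Alternatives were DESeq2 1.42.0 size factors and Wald test, library size alone, no filter, at least 10 counts in every library, all 9 libraries in one fit, a replicate block, no mitochondrial genes, and each library left out. Sequences came from RefSeq (GRCm38.p6) and GENCODE M21 and were read with Biopython 1.88 and pandas 2.3.3 in Python 3.11.15, and figures were drawn with matplotlib 3.10.9. No coordinates were converted between builds. The labels do not say that mice of a group were housed or handled separately, so the spread is that between these samples. The values of 1 list gene are not reported here.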

Additional observations from a re-analysis of the deposited data

How the results depend on the processing

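Under the alternatives 41 member medians and 344 single-member values kept their direction and moved by less than the spread. That spread was the pooled within-group SD of log2 CPM scaled by library size (for medians, its median over members). It is wide, so large changes can fall within it. One such was Oasl2 for Indirubin against DSS, from 2.32 to 1.21 without the second Indirubin mouse. Beyond the spread 16 single values moved, and the following turned. Scaled by library size alone, Indirubin against Control gave a member median of 0.0934, with Isg15 also at 0.0934, Irf7 at 0.46, Usp18 at 0.20, Oasl2 at 0.24 and Rsad2 at 0.27. For Indirubin against DSS, Ifit1 was at -0.17 without the second Indirubin mouse and at -0.0010 without the second DSS mouse, where Ifit2 was at -0.20; leaving out 1 library gave -0.17 to 1.07 for Ifit1 and -0.20 to 1.54 for Ifit2. That scaling moved the median of all genes to 0.70, 0.43 and 1.11 (from 0.01, 0.15 and 0.13) and the split of higher against lower genes at an unadjusted p under 0.05 from 260 and 303 to 845 and 71 (DSS against Control), from 406 and 294 to 407 and 103 (Indirubin against DSS) and from 600 and 514 to 2115 and 107 (Indirubin against Control). It left Irf7 at -1.27, Ifit3 at -2.64 and Usp18 at -3.03 for DSS against Control, and for Indirubin against Control Ifit2 at -0.96, Ifit3 at -0.35 and Ifit3b at -0.69.

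For the wider lists, 1 gene was called in DSS against Control, and 0 with library size alone or all 9 libraries in one fit. The DESeq2 Wald test called 8, and 8 of 174 were called without the filter. The stricter minimum of 10 counts per library called 3 of 61 (3327 genes tested, 4 of the 9 members). Over all genes 43 higher and 82 lower of 18484 were called without the filter, and 29 and 55 with the stricter minimum. Leaving out 1 library gave 0 to 3 list genes, with 3 of 129 without the first DSS mouse, beside 27 higher and 37 lower of all 8032 genes. In Indirubin against DSS 0 were called, and 1 of 176 (Slfn1) without the filter, beside 104 higher and 52 lower of all 23034 genes. In Indirubin against Control 0 were called, and 10 with the Wald test (1 higher, 9 lower). Library size alone called 3 of 132 (2 higher, Apobec3 and Ifitm1, and 1 lower), beside 249 higher and 17 lower of all 8059 genes. Without the filter 6 of 178 were called, beside 192 higher and 187 lower of all 22767. The stricter minimum called 4 of 79, beside 25 higher and 47 lower of all 3602. All 9 libraries in one fit called 1 of 145, beside 21 higher and 35 lower of all 9713. Leaving out 1 library gave 0 to 6, with 6 (1 higher, 5 lower) without the first Indirubin mouse. Those were 6 of 150 list genes, where 145 higher and 320 lower of all 9721 genes were called. Beyond the number of genes or libraries that an alternative tests, the cause was not tested. Same-numbered mice did not deviate together (correlations from -0.02 to 0.02 across genes), and blocking on replicate number called 1, 0 and 1 list genes in the same order of comparisons. Over all genes that block called 9 higher and 21 lower of 7482, 2 and 1 of 9117, and 14 and 35 of 8059.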
